A study of Mus musculus with 9 samples.

Results

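Potassium channel genes were followed in 3 populations from the mouse lung. The genes were all rows of the count table whose symbol is Kcn followed by lower-case letters and a number, except 1 symbol of that form that the rule left out. This gave 89 of the 19348 genes in the table. Of these, 62 had enough reads to be tested, among 15550 genes tested in all, and 27 did not. RNA was sequenced in 9 libraries, 3 per population, from C57BL/6J mice that carry the Col1_GFP and Foxf1_tdTomato reporters together. Col1_GFP is a collagen reporter and Foxf1_tdTomato reports Foxf1, a forkhead transcription factor of lung mesenchyme and endothelium. DBL denotes the libraries labelled for both reporters, ColGFP those for the collagen reporter alone and TDonly those for the Foxf1 reporter alone. All 3 populations share the genotype, and no treatment is named. The ages, the sort gates and whether replicates came from separate animals are not stated in the labels, so p-values measure the spread between these samples, which may be technical. The reporters describe promoter activity and do not by themselves define a cell type.

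Potassium channels let potassium leave or enter the cell and so set the membrane potential, which in turn governs calcium entry, contraction, secretion and volume. Pore-forming subunits open on depolarisation (voltage-gated), on a rise in calcium or sodium, or conduct at rest (inward rectifiers and two-pore-domain leak channels). Silent subunits conduct nothing alone and change the channels they join, and auxiliary subunits alter gating and trafficking. In the lung these channels are known for setting pulmonary arterial tone and for driving ion and fluid transport in epithelium.

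The regions before 4 of these genes are shown because the genes stand for the 3 orders of level described further on: Kcnh1 and Kcnk5 were highest in TDonly, Kcnk13 was highest in ColGFP, and Kcnt2 was highest in DBL. Each sequence is read from the RefSeq table (GRCm38.p6; 66 of the 89 genes have an entry) and covers up to 250 bases before the annotated start, 5′ to 3′ on the strand of the gene, with bases inside GENCODE exons left off. Capitals mark the GC box GGGCGG on either strand. Kcnh1 is at chr1:192190527-192190773 on the plus strand, Kcnk5 at chr14:20181810-20182032 on the minus strand, Kcnk13 at chr12:99964249-99964498 on the plus strand and Kcnt2 at chr1:140245468-140245717 on the plus strand.
Kcnh1: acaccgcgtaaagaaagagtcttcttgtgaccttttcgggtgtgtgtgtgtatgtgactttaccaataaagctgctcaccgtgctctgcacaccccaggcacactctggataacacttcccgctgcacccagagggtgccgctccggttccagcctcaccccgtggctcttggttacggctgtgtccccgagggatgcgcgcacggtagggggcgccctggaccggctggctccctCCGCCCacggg
Kcnk5: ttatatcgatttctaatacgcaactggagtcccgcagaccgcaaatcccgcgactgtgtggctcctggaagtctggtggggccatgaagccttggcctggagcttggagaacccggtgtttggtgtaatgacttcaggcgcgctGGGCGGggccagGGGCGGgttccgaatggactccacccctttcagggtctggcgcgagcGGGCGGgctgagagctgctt
Kcnk13: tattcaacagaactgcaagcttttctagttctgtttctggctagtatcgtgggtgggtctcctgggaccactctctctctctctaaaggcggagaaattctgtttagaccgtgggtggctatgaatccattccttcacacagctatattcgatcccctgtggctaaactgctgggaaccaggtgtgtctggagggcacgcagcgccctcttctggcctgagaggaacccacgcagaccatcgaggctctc
Kcnt2: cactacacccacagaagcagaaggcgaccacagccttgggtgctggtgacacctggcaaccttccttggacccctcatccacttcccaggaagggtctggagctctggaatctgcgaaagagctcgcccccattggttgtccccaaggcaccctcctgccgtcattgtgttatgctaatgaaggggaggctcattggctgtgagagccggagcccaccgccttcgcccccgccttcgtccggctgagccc
The Kcnk5 sequence holds 3 GC boxes, the Kcnh1 sequence holds 1, and the other two hold 0. A GC box was found in 32.7% of the 32851 RefSeq windows of 250 bases. The forkhead motif TGTTTAC (3.17% of windows), the GATA motif AGATAA (9.99%), the ETS motif CCGGAAG (6.91%) and the CArG box (1.47%), searched on both strands, were in none of the 4 sequences. These are matches of letters only.

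The libraries held 17820969 to 26147475 counts, of which 11441 to 18280 fell on potassium channel genes. The replicate 1 libraries carry lower sequencing core numbers than the other 6, and no label calls this a batch. All 12 endothelial markers were called higher in TDonly than in ColGFP and higher in TDonly than in DBL, and their summed level, in counts per 1000000 of the scaled library size (CPM), was 935 to 1348 in ColGFP, 4848 to 6213 in DBL and 14259 to 15781 in TDonly. All 10 fibroblast markers were called lower in TDonly than in either other population (20203 to 35783 CPM in ColGFP, 33588 to 43249 in DBL and 1371 to 5324 in TDonly). The 11 epithelial markers summed to 3520 to 10345 CPM in ColGFP, 6478 to 7096 in DBL and 9986 to 13200 in TDonly, so each population held RNA of epithelial genes. The ColGFP replicate 1 library was the highest of its population for epithelial (10345 CPM) and smooth muscle markers (2297) and the lowest for fibroblast markers (20203), and the TDonly replicate 1 library was the lowest of its population for fibroblast markers (1371). No marker present in the count table was at 0 in every library. Of 8 erythroid and platelet markers, 5 were in the count table. Because these are bulk samples, fewer cells of a type and less RNA per cell cannot be told apart.

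The summed level of potassium channel transcripts was highest in ColGFP, with a test that 3 libraries against 3 cannot bring past the threshold. Summed over the 89 genes, the level was 817, 750 and 753 CPM in the ColGFP libraries, 479, 527 and 529 in DBL, and 451, 488 and 503 in TDonly. The means were 773 ± 38.2 in ColGFP, 512 ± 28.5 in DBL and 481 ± 26.5 in TDonly (SD, n = 3). The ColGFP libraries lay above all others, while DBL and TDonly overlapped. The 2-sided exact permutation test gave p = 0.1 for ColGFP against each other population and p = 0.3 for DBL against TDonly (adjusted over 3 comparisons, 0.15, 0.15 and 0.3), and 0.1 is the smallest p that 3 against 3 allows. Kcne4, an auxiliary subunit that inhibits several voltage-gated channels, contributed the most in ColGFP and DBL but 8.67 CPM in TDonly: without it the means were 602 in ColGFP, 439 in DBL and 472 in TDonly, which puts TDonly above DBL.

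Levels of different genes were compared per length, as reads per kilobase of exon, scaled to library size (RPKM). In ColGFP the highest was Kcne4 with 64.5 ± 3.07 RPKM, ahead of Kcns3, a silent subunit of voltage-gated channels, with 19.2 ± 1.54 and the acid-sensitive leak channel Kcnk3 with 11.1 ± 4.36 (SD, n = 3). Kcne4 also led in DBL with 27.3 ± 2.0 RPKM, where the leak channel Kcnk6 followed with 7.69 ± 0.83. TDonly had another leading set. Its highest was Kcnq1, a voltage-gated pore of epithelium and heart, with 11.2 ± 0.50 RPKM, and next to it Kcnk6 (10.7 ± 0.80), the inward rectifier Kcnj15 (10.1 ± 0.62) and Kcnh1, the ether-à-go-go channel (9.59 ± 0.90), whose ranges overlapped with their neighbours. Kcne4 had rank 10 in TDonly with 3.26 ± 1.69 RPKM. Kcne4 is known to inhibit the Kcnq1 channel, and the order of the 2 in TDonly was the opposite of that elsewhere: Kcnq1 had 1.37 ± 0.56 RPKM in ColGFP and 4.10 ± 0.25 in DBL.

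The families shifted in the same measure. Auxiliary subunits took 38.6 ± 1.92% of the summed per-length level in ColGFP, 28.5 ± 1.54% in DBL and 11.9 ± 2.54% in TDonly (SD, n = 3). Kcne4 was the highest of them per length in ColGFP and DBL, and Kcne2 in TDonly (6.24 ± 1.64 RPKM). Silent subunits took 12 ± 1.20%, 6.83 ± 1.06% and 2.99 ± 0.64% in the same order. Both families had no overlap between any pair of populations. Voltage-gated pores went the other way, from 21.7 ± 0.67% in ColGFP through 26.3 ± 0.92% in DBL to 36.2 ± 0.33% in TDonly. Inward rectifiers took 6.74 ± 3.03%, 12.1 ± 0.42% and 21.1 ± 2.06%, with the ColGFP replicate 1 library at 10.2% against 5.48% and 4.55% in the others. Leak channels ranged from 17.2 ± 0.62% in ColGFP to 24.6 ± 1.58% in TDonly. These are shares of one sum, so that a fall in one family raises the others. In summed CPM, not divided by length, the voltage-gated pores were highest in ColGFP. Their means were 283 ± 4.01 CPM in ColGFP, 200 ± 10.3 in DBL and 224 ± 14 in TDonly. Leak channels had 117 ± 9.64, 87.9 ± 7.75 and 91.4 ± 2.23 CPM in the same order, and inward rectifiers 61.4 ± 32.8, 65.1 ± 2.77 and 103 ± 8.26.

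**Figure D1:**
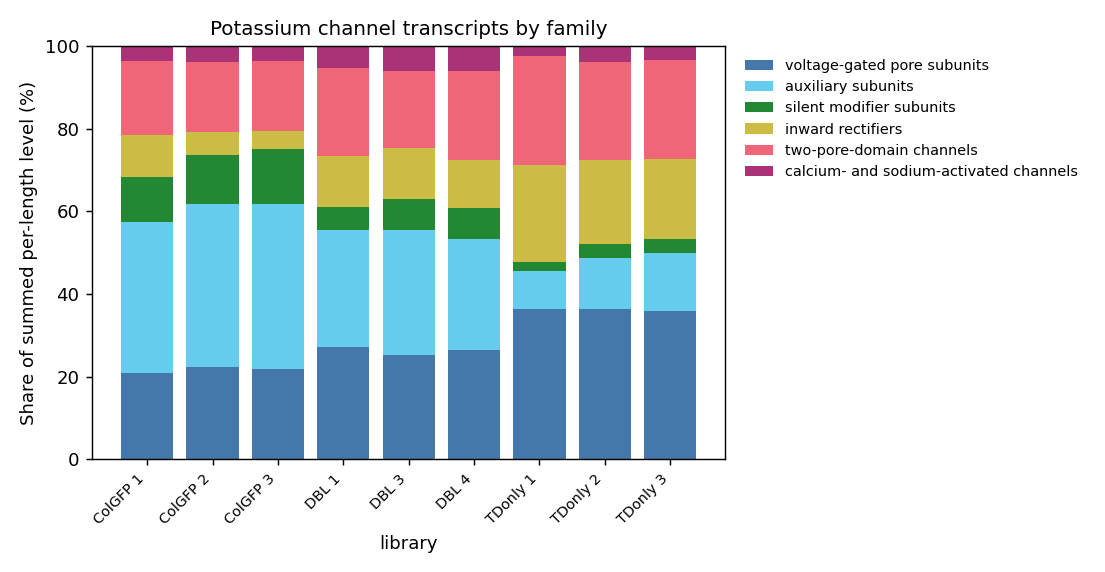
Share of the summed per-length level (RPKM, in percent) of all 89 potassium channel genes taken by each of 6 families, 1 bar per library. Auxiliary and silent subunits narrow from ColGFP (38.6% and 12% on average) to TDonly (11.9% and 2.99%), and voltage-gated pores widen from 21.7% to 36.2%.

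The 3 populations were compared with edgeR's quasi-likelihood test in a single model, and a gene was called at a Benjamini-Hochberg adjusted p under 0.05 over all 15550 genes. Between DBL and ColGFP, 17 of the 62 tested potassium channel genes were called, against 14.5% of all genes: 5 were higher in DBL (all genes, 8.04%) and 12 lower (6.47%). Between TDonly and ColGFP, 33 were called (45.5%), 11 higher (21.6%) and 22 lower (24%) in TDonly. Between DBL and TDonly, 23 were called (29.9%), 18 higher (17.3%) and 5 lower (12.6%) in DBL. The share of channel genes higher in DBL than in ColGFP was thus near that of all genes, while those lower in DBL than in ColGFP were 19.4% of the tested set. The median log2 fold change over the tested channel genes was 0.01, -0.20 and 0.11 in the 3 comparisons, against -0.00, 0.02 and -0.04 over all genes. The libraries of the populations did not overlap for 27, 35 and 39 of the 62, against 33.3%, 56.1% and 47% of all genes. The comparisons share libraries, so their calls are not independent of each other.

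Some of these counts moved when 1 library was left out. The 12 genes lower in DBL than in ColGFP became 7 without ColGFP replicate 2, 6 without ColGFP replicate 3, DBL replicate 1 or DBL replicate 3, and 4 without DBL replicate 4. Calls of either direction over all genes fell too in these 5 fits, from 14.5% to between 9.31% and 10.5%. The 11 genes higher in TDonly than in ColGFP became 17 without ColGFP replicate 1, 7 without ColGFP replicate 2 and 6 without TDonly replicate 2, where calls over all genes were 46.6%, 36.1% and 38.7% against 45.5%. The 5 genes lower in DBL than in TDonly became 9 without ColGFP replicate 1 and 3 without DBL replicate 3, where calls over all genes were 32.4% and 23.1% against 29.9%. Among the 6 libraries with the higher core numbers alone, the calls were 16 higher and 12 lower in DBL than in ColGFP, 20 and 25 in TDonly against ColGFP, and 22 and 10 in DBL against TDonly. Calls over all genes rose as well, to 28.9%, 56.6% and 43.1%. The other series of core numbers has 1 library per population and allows no test.

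In 41 of the 62 tested genes (66.1%; 61% of all genes) the DBL mean lay between the other two. DBL was the highest in 11 (17.7%; 17.4% of all genes) and the lowest in 10 (16.1%; 21.6%). In 14 genes all 3 comparisons were called, and in each of them DBL was intermediate: 10 fell from ColGFP through DBL to TDonly and 4 rose. No share over all genes is given for this count, so it is not read as particular to channel genes.

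**Figure D2:**
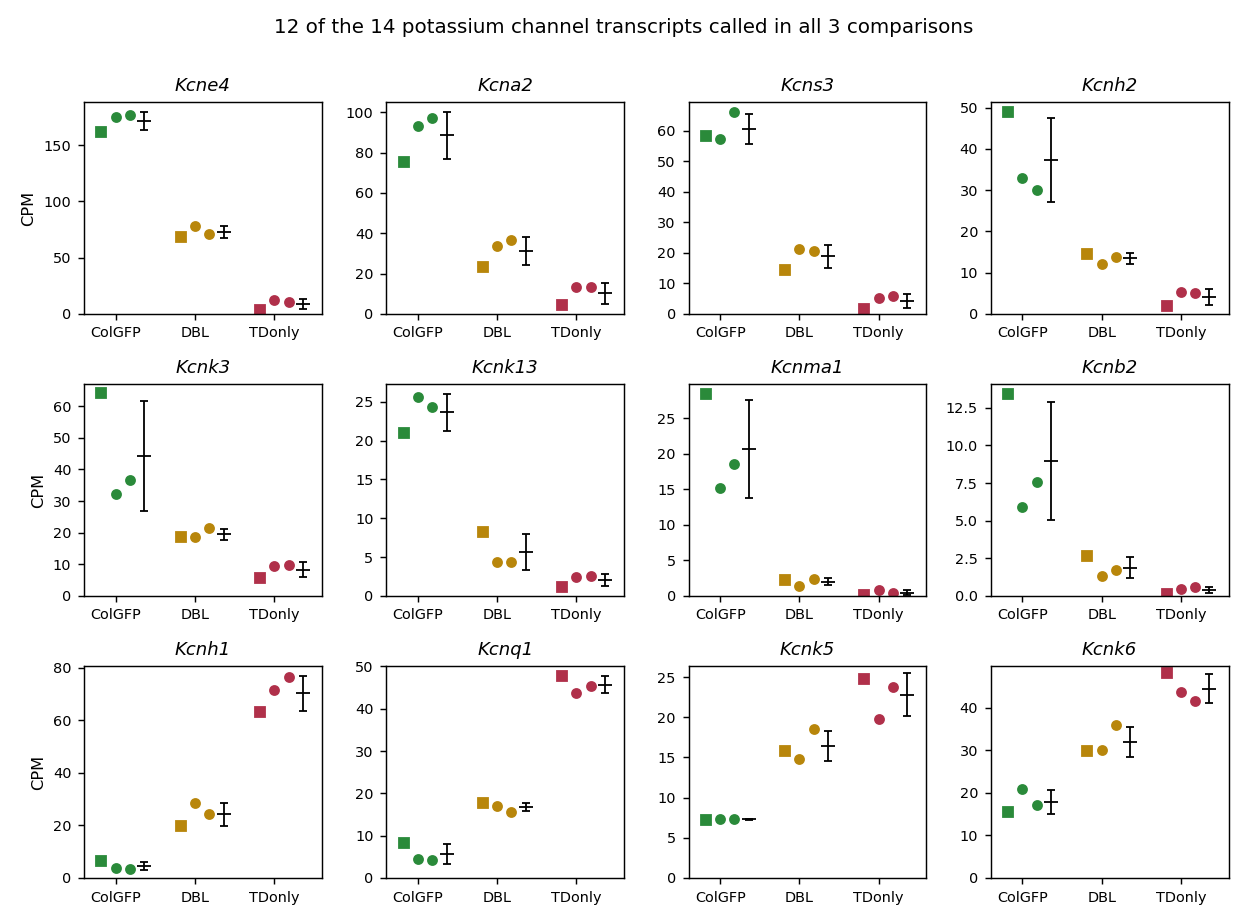
Level in CPM (linear axes from 0) of 12 of the 14 genes called in all 3 comparisons, with each library as a point (square, replicate 1; circles, the other replicates) and the mean ± SD beside it (n = 3). The first 8 panels fall from ColGFP to TDonly, as Kcne4 does from 171 to 8.67 CPM, and the last 4 rise, as Kcnh1 does from 4.5 to 70.3 CPM.

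Among the voltage-gated pores, Kcnh1 and Kcnq1 had the largest increases from ColGFP to TDonly. Kcnh1 had 6.35, 3.63 and 3.51 CPM in the ColGFP libraries, 19.8, 28.7 and 24.1 in DBL, and 63.2, 71.4 and 76.3 in TDonly. No population overlapped with another. The log2 difference was 2.42 ± 0.23 (SE) for DBL minus ColGFP (edgeR adjusted p = 0.000153), 3.96 ± 0.24 for TDonly minus ColGFP (1.88e-06) and -1.54 ± 0.22 for DBL minus TDonly (0.000621). Kcnq1, which joins Kcne subunits in epithelium and heart, had 8.27, 4.48 and 4.11 CPM in ColGFP, 17.7, 17.1 and 15.7 in DBL, and 47.9, 43.8 and 45.4 in TDonly. Its log2 differences were 1.57 ± 0.23 (adjusted p = 0.00171), 3.01 ± 0.24 (7.91e-06) and -1.44 ± 0.22 (0.000959). Kcnq1 shares 121 exon bases with its antisense gene Kcnq1ot1, and the strand used in counting is not given, so reads in those bases cannot be assigned. Kcnq1ot1 itself stood at 210 to 374 CPM in the 9 libraries and was called in no comparison. Endothelial and epithelial marker sums were also highest in TDonly (14259 to 15781 and 9986 to 13200 CPM), and their part in these levels was not tested.

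Pores of the opposite order included Kcnh2, Kcna2 and Kcnb2. Kcnh2, the rapid delayed rectifier of the heart, had 49.0, 33.0 and 30.1 CPM in ColGFP, 14.5, 12 and 13.7 in DBL, and 1.91, 5.33 and 5.06 in TDonly. Its log2 difference was -1.48 ± 0.32 for DBL minus ColGFP (adjusted p = 0.0134) and -3.19 ± 0.35 for TDonly minus ColGFP (5.9e-05). Kcna2, a delayed rectifier of the Shaker type, had 75.4, 93.2 and 97.3 CPM in ColGFP, 23.1, 33.8 and 36.4 in DBL, and 4.25, 13.4 and 13.2 in TDonly. The DBL minus ColGFP difference of Kcna2 was -1.51 ± 0.36 (0.0197), and the TDonly replicate 1 library was the lowest of all. Kcnb2, another delayed rectifier, was lower throughout, with 13.4, 5.93 and 7.58 CPM in ColGFP, 2.63, 1.31 and 1.70 in DBL, and 0.156, 0.441 and 0.572 in TDonly.

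The DBL against ColGFP calls of Kcnh2 and Kcna2 are near the threshold. That of Kcnh2 was lost without DBL replicate 3 or 4 (edgeR adjusted p from 0.0525 to 0.0579) and with the replicate number as a block (0.096). That of Kcna2 was lost without ColGFP replicate 2 or 3 or any DBL library (0.0504 to 0.0703). Among the 6 libraries with higher core numbers both were called, at -1.27 for Kcnh2 (edgeR adjusted p = 4.82e-07) and -1.42 for Kcna2 (1.12e-09). In TDonly minus ColGFP the calls of all 3 genes remained with any library left out.

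Kcnd1 and Kcnd3 had another order: the DBL and ColGFP libraries overlapped, and both lay above TDonly. Kcnd1, a pore of the transient A-type current, had 1.79, 3.09 and 3.14 CPM in ColGFP, 2.29, 3.11 and 2.38 in DBL, and 0.195, 0.841 and 0.396 in TDonly. The log2 difference of Kcnd1 between DBL and ColGFP was -0.04 ± 0.41 (edgeR adjusted p = 0.967). The DBL minus TDonly difference of Kcnd1 was 2.43 ± 0.47 (0.00341). Its relative Kcnd3 had 11.7, 6.71 and 8.09 CPM in ColGFP, 6.82, 6.98 and 6.46 in DBL, and 1.13, 2.88 and 2.64 in TDonly, with a DBL minus TDonly difference of 1.61 ± 0.33 (0.00501). All 10 fibroblast markers were lower in TDonly than in ColGFP and DBL, and their part in these levels was not tested. Between DBL and ColGFP 0 of the 10 were called, yet not all of them overlapped: Pdgfra had 1858 to 2072 CPM in ColGFP and 940 to 1141 in DBL, and Dcn had 669 to 2075 and 2758 to 4211.

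Of the other voltage-gated pores, Kcnh3, a relative of Kcnh1, was higher in TDonly than in ColGFP, by 1.28 ± 0.39 on the log2 scale (edgeR adjusted p = 0.023), at low levels (1.21, 1.96 and 1.41 CPM against 0.805, 0.605 and 0.462). That call was lost without ColGFP replicate 2 or 3 or TDonly replicate 2 (0.0707 to 0.0899) and with the replicate number as a block (0.0685). Kcna6, a Shaker-type channel, was called in 1 comparison, with DBL at 2.55, 3.33 and 3.15 CPM against 0.984, 1.69 and 1.06 in ColGFP, a log2 difference of 1.28 ± 0.36 (0.0413). The Kcna6 call was lost without ColGFP replicate 1 or 3, any DBL library, or TDonly replicate 2 or 3 (0.052 to 0.144). Kcna6 shares 2355 of its 5945 exon bases with the antisense gene Gm26673, which is not among the counted genes. The strand used in counting is not given, so reads in those bases cannot be assigned. Kcna3 and Kcna1, the 2 most abundant tested pores with no call, had means of 11.1 and 1.70 CPM in ColGFP, 4.47 and 4.29 in DBL, and 4.80 and 3.82 in TDonly. For Kcna3 the ColGFP libraries lay above the DBL ones, with a log2 difference of -1.31 ± 0.48 (adjusted p = 0.109). That difference was called with DESeq2, with the core number set as a block and with the core number series as a covariate. It was also called among the 6 libraries with higher core numbers, with only the 2 populations in the model and without TDonly replicate 1.

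Kcns3 and Kcng1, silent subunits that conduct only within another channel, fell from ColGFP through DBL to TDonly. Kcns3 had 58.3, 57.3 and 66.2 CPM in ColGFP, 14.4, 21.4 and 20.7 in DBL, and 1.60, 5.05 and 5.93 in TDonly. Its log2 differences were -1.69 ± 0.35 for DBL minus ColGFP (adjusted p = 0.0105), -3.86 ± 0.39 for TDonly minus ColGFP (3.64e-05) and 2.17 ± 0.37 for DBL minus TDonly (0.00188). The TDonly replicate 1 library, lowest of its population in fibroblast markers (1371 CPM against 5035 and 5324), was also lowest for Kcns3, and the part of one in the other was not tested. Kcng1 was rarer, with 7.29, 2.36 and 2.86 CPM in ColGFP, 0.610, 1.58 and 0.444 in DBL, and 0.156, 0.240 and 0 in TDonly. Its TDonly minus ColGFP difference was -4.90 ± 0.83 (0.000945). Both calls of Kcng1 that involve DBL were lost in most fits with a library left out: the DBL against ColGFP call without ColGFP replicate 1, 2 or 3, DBL replicate 1 or 4, or TDonly replicate 2 (0.0625 to 0.173), and the DBL against TDonly call without ColGFP replicate 2 or 3, DBL replicate 1 or 3, or any TDonly library (0.0521 to 0.167). Library totals (0.062 and 0.0549) and the replicate number as a block (0.25 and 0.101) ended both calls too. The DBL against ColGFP call was also lost with DESeq2 size factors (0.0512) and among the 6 libraries with higher core numbers (-1.37, 0.0879). The DBL against TDonly call was also lost with limma-voom (0.115) and with only the 2 populations in the model (0.0574). Of the 7 silent subunits tested, 3 were lower in TDonly than in ColGFP (24% of all genes) and 0 higher (21.6%). The other 4 had no call. The most abundant of the 4 were Kcng2, with means of 2.95, 3.06 and 2.73 CPM in ColGFP, DBL and TDonly, and Kcns1, with 0.484, 0.704 and 1.41 CPM.

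Kcne4 was the most abundant auxiliary subunit in ColGFP and DBL. It had 162, 175 and 177 CPM in ColGFP, 68.0, 78.4 and 71.2 in DBL, and 3.59, 12 and 10.4 in TDonly. None of the populations overlapped. The log2 difference was -1.24 ± 0.32 for DBL minus ColGFP (edgeR adjusted p = 0.029), -4.31 ± 0.37 for TDonly minus ColGFP (1.27e-05) and 3.07 ± 0.35 for DBL minus TDonly (0.000236). The DBL against ColGFP call of Kcne4 was lost when any 1 of the 6 DBL and ColGFP libraries was left out (0.0509 to 0.0995), although the 2 sets of libraries are far apart. That call was also lost with the replicate number as a block (0.0956). Among the 6 libraries with higher core numbers the same difference was -1.22 and was called (edgeR adjusted p = 4.55e-09).

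Kcnip3, a calcium-binding partner of the Kcnd pores, had the order of Kcnd1 and Kcnd3. It had 2.91, 2.54 and 3.05 CPM in ColGFP, 2.10, 2.88 and 2.22 in DBL, and 0.351, 0.561 and 0.659 in TDonly, with log2 differences of -2.43 ± 0.30 for TDonly minus ColGFP (edgeR adjusted p = 0.00013) and 2.19 ± 0.30 for DBL minus TDonly (0.000556). Kcnab1, a cytoplasmic partner of Shaker-type pores, was likewise lower in TDonly (0.935, 1.32 and 1.23 CPM) than in ColGFP (5.28, 3.33 and 2.13) and DBL (2.59, 4.06 and 2.02). Its DBL minus TDonly difference was 1.31 ± 0.39 (0.0316), and that call was lost without DBL replicate 3 or any TDonly library (0.0632 to 0.122). That call was also lost with limma-voom (0.0653), with library totals (0.0532) and with the replicate number as a block (0.071). Kcne2 and Kcnab2 were the most abundant of the 4 tested auxiliary subunits with no call, with means of 5.15 and 3.33 CPM in ColGFP, 5.89 and 2.62 in DBL, and 11 and 6.09 in TDonly. Of the 7 auxiliary subunits tested, of 11 in all, 3 were lower in TDonly than in ColGFP (24% of all genes) and 0 higher (21.6%).

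**Figure D3:**
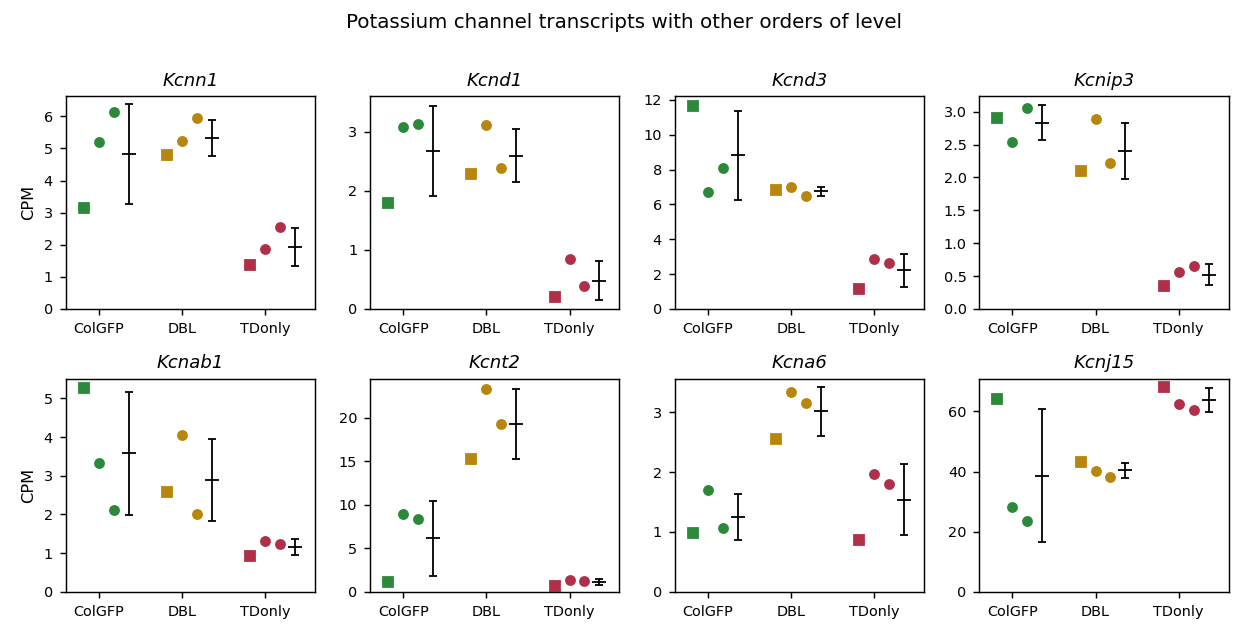
Level in CPM (linear axes from 0) of 8 genes in other orders, with each library as a point (square, replicate 1; circles, the other replicates) and the mean ± SD beside it (n = 3). Kcnn1, Kcnd1, Kcnd3, Kcnip3 and Kcnab1 are low in TDonly, Kcnt2 and Kcna6 are highest in DBL, and the ColGFP replicate 1 library of Kcnj15 stands at 64.1 CPM against 28.1 and 23.7.

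The leak channels split between both ends. Kcnk5, opened by alkaline pH and known in epithelial transport, had 7.24, 7.32 and 7.30 CPM in ColGFP, 15.8, 14.9 and 18.6 in DBL, and 24.8, 19.7 and 23.8 in TDonly. The log2 difference was 1.17 ± 0.13 for DBL minus ColGFP (adjusted p = 0.000389), 1.64 ± 0.13 for TDonly minus ColGFP (1.01e-05) and -0.47 ± 0.13 for DBL minus TDonly (0.0208). Kcnk6, a weakly conducting channel found in lysosomes and vessels, had 15.4, 20.9 and 17.0 CPM in ColGFP, 29.8, 30.1 and 35.9 in DBL, and 48.1, 43.7 and 41.5 in TDonly. It rose by 0.85 ± 0.14 from ColGFP to DBL (0.00277) and differed by -0.48 ± 0.13 between DBL and TDonly (0.0225). The DBL against TDonly calls are the small ones. That of Kcnk5 was lost without DBL replicate 1 or 3 or TDonly replicate 1 or 3 (0.055 to 0.0784) and among the 6 libraries with higher core numbers (0.0682). That of Kcnk6 was lost without DBL replicate 1 or 3 or TDonly replicate 1 or 2 (0.054 to 0.0809) and with the replicate number as a block (0.0543). Endothelial markers had the same order, from 935 to 1348 CPM in ColGFP to 14259 to 15781 in TDonly. Of 11 epithelial markers 7 were also called higher in TDonly than in ColGFP (9986 to 13200 CPM against 3520 to 10345). The part of either list in these levels was not tested. Kcnk7, whose product has not been shown to conduct, was higher in TDonly (3.55, 2.52 and 2.07 CPM) than in ColGFP (0.805, 1.27 and 1.71), by 1.10 ± 0.35 (0.0275). The Kcnk7 call was lost without ColGFP replicate 1 or 2 or TDonly replicate 1 or 2 (0.0519 to 0.091). It was also lost among those 6 libraries (0.161) and with the replicate number as a block (0.0642).

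At the other end lay Kcnk13, Kcnk3 and Kcnk2. Kcnk13, a halothane-inhibited leak channel, had 21.0, 25.6 and 24.3 CPM in ColGFP, 8.27, 4.37 and 4.32 in DBL, and 1.09, 2.48 and 2.51 in TDonly, with log2 differences of -2.06 ± 0.32 (edgeR adjusted p = 0.00255), -3.55 ± 0.35 (3.4e-05) and 1.49 ± 0.35 (0.00947) for DBL minus ColGFP, TDonly minus ColGFP and DBL minus TDonly. Kcnk3, the acid-sensitive channel in which loss-of-function variants are known in heritable pulmonary arterial hypertension, had 64.1, 32.1 and 36.5 CPM in ColGFP, 18.6, 18.5 and 21.6 in DBL, and 5.49, 9.37 and 9.80 in TDonly. The DBL minus ColGFP difference of Kcnk3 was -1.18 ± 0.28 (0.0203). Its call was lost without any 1 of the DBL libraries (0.0546 to 0.0736) and with the replicate number as a block (0.0864). The ColGFP replicate 1 library was highest for Kcnk3, and it was also highest in smooth muscle markers (2297 CPM against 980 and 1076); the part of these in its Kcnk3 level was not tested. Kcnk3 shares 229 exon bases with Gm9899 on the other strand, a gene of at most 2.13 CPM. Kcnk2, a stretch-sensitive channel, had 15.0, 23.2 and 21.3 CPM in ColGFP, 8.24, 8.47 and 9.77 in DBL, and 3.20, 6.89 and 7.12 in TDonly. Its DBL minus ColGFP difference was -1.17 ± 0.28 (0.0218), a call that was lost without ColGFP replicate 2 or 3 or any DBL library (0.0615 to 0.0838), and DBL minus TDonly was 0.62 ± 0.29 (0.134). The latter was called with the core number set as a block, with the core number series as a covariate and among the 6 libraries with higher core numbers. Kcnk2 shares 604 exon bases with an antisense gene that is not among the counted genes. Kcnk1 was the 1 tested leak channel with no call and had means of 2.85, 2.77 and 4.59 CPM in ColGFP, DBL and TDonly.

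Of the 14 inward rectifiers, 8 were tested and 3 were called in at least 1 comparison. In TDonly against ColGFP 2 were higher (21.6% of all genes) and 1 lower (24%). In DBL against ColGFP 0 were higher (8.04%) and 1 lower (6.47%), and in DBL against TDonly 0 were higher (17.3%) and 0 lower (12.6%). Kcnj5, a G protein-gated pore, was higher in ColGFP (2.41, 2.30 and 3.56 CPM) than in DBL (0.419, 0.721 and 0.606) and TDonly (0.195, 0.320 and 0.835), and DBL minus ColGFP was -2.24 ± 0.48 (edgeR adjusted p = 0.013). Without ColGFP replicate 3 or DBL replicate 4 this call was lost (0.0578 and 0.0508). Kcnj1, the renal outer medullary channel, reached 1.21, 1.12 and 1.36 CPM in TDonly against 0.224, 0.544 and 0.416 in ColGFP, a log2 difference of 1.65 ± 0.40 (0.00781). Kcnj13, a channel of transporting epithelia, had 5.57, 7.17 and 7.91 CPM in TDonly against 4.25, 3.15 and 1.39 in ColGFP, a difference of 1.23 ± 0.39 (0.0267). The Kcnj13 call was lost without ColGFP replicate 2 or 3 or TDonly replicate 2 or 3 (0.063 to 0.0759) and with the replicate number as a block (0.0712). Kcnj13 shares 623 exon bases with Gigyf2 on the other strand, which stood at 49.1 to 66.8 CPM.

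Kcnj15 and Kcnj2, the highest inward rectifiers by CPM, had no call. Kcnj15 had 64.1, 28.1 and 23.7 CPM in ColGFP, 43.2, 40.1 and 38.2 in DBL, and 68.1, 62.4 and 60.6 in TDonly, and its TDonly minus ColGFP difference was 0.72 ± 0.31 (edgeR adjusted p = 0.085). The classical inward rectifier Kcnj2 had 25.7, 8.77 and 8.36 CPM in ColGFP, 18.3, 15.0 and 14 in DBL, and 34.7, 26 and 23.0 in TDonly. In both genes the ColGFP replicate 1 library overlapped TDonly, while the other ColGFP libraries lay below every DBL library. That library was also highest of its population in epithelial markers (10345 CPM against 5195 and 3520), whose part in these levels was not tested. Both genes were called in TDonly minus ColGFP without that library, with the core number set or the replicate number as a block, with the core number series as a covariate, among the 6 libraries with higher core numbers, and with limma-voom.

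Of the calcium- and sodium-activated genes, Kcnma1, the large-conductance pore, had the widest range. It had 28.4, 15.1 and 18.5 CPM in ColGFP, 2.17, 1.44 and 2.42 in DBL, and 0.156, 0.881 and 0.352 in TDonly, where the counts were 4, 22 and 8. The log2 difference was -3.35 ± 0.42 for DBL minus ColGFP (edgeR adjusted p = 0.000645), -5.46 ± 0.49 for TDonly minus ColGFP (1.79e-05) and 2.11 ± 0.50 for DBL minus TDonly (0.0104). The DBL against TDonly call of Kcnma1 was lost with the replicate number as a block (0.0718). Kcnma1 shares 1016 exon bases with a gene on the other strand that is not among the counted genes. Its smooth muscle beta subunit Kcnmb1 moved less, with 8.05, 4.11 and 3.05 CPM in ColGFP, 3.47, 1.31 and 3.31 in DBL, and 1.09, 2.04 and 1.58 in TDonly. The TDonly minus ColGFP difference of Kcnmb1 was -1.69 ± 0.47 (0.0153), and its call was lost without ColGFP replicate 1 (0.0563). Smooth muscle markers were lower in TDonly for 9 of 9 and in DBL for 3 of 9 (980 to 2297 CPM in ColGFP, 648 to 929 in DBL and 246 to 265 in TDonly), and their part in these levels was not tested.

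Kcnt2, a sodium-activated pore, was highest in DBL. It had 15.2, 23.3 and 19.3 CPM in DBL, 1.16, 8.89 and 8.36 in ColGFP, and 0.702, 1.40 and 1.27 in TDonly. All DBL libraries lay above all others, while the ColGFP replicate 1 library fell within TDonly. The DBL minus TDonly difference was 4.09 ± 0.64 (edgeR adjusted p = 0.00116), the largest of that comparison among these genes, and DBL minus ColGFP was 1.66 ± 0.56 (0.084). Among the 6 libraries with higher core numbers the DBL minus ColGFP difference was 1.32 ± 0.16 (4.24e-06), and it was also called without ColGFP replicate 1. DESeq2, limma-voom, a block of replicate number or core number set, and the core number series as a covariate called it too. TDonly minus ColGFP was -2.44, a call lost with limma-voom (adjusted p = 0.126). Mesothelial markers were called higher in DBL than in ColGFP for 5 of 7 and higher than in TDonly for 7 of 7 (634 to 749 CPM in DBL, 221 to 282 in ColGFP and 77.0 to 296 in TDonly), and their part in the Kcnt2 level was not tested. Kcnt2 shares 102 exon bases with an antisense gene that did not exceed 0.225 CPM.

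The small- and intermediate-conductance pores differed from each other. Kcnn1 had 3.13, 5.20 and 6.14 CPM in ColGFP, 4.80, 5.23 and 5.94 in DBL, and 1.36, 1.88 and 2.55 in TDonly, and DBL minus TDonly was 1.46 ± 0.30 (edgeR adjusted p = 0.00519). Kcnn4, known in red cells, leukocytes and epithelium, was lower in DBL (0.381, 0.541 and 0.686 CPM) than in TDonly (2.10, 1.32 and 1.58), a difference of -1.63 ± 0.36 (0.00717) whose call was lost among the 6 libraries with higher core numbers (0.0539). Kcnn4 was called in neither comparison with ColGFP, where it had 21, 22 and 19 raw counts against 10, 12 and 17 in DBL. Of 10 leukocyte markers 2 were called lower in DBL than in TDonly. Their sum (1287 to 1468 CPM in DBL, 1975 to 2772 in TDonly) was mostly Lyz2 (1253 to 1357 and 1890 to 2529), a gene of macrophages and also of alveolar epithelium. All 12 endothelial markers were also called lower in DBL than in TDonly, and the part of any of these cell types was not tested. Kcnn3 had means of 9.98, 8.08 and 9.90 CPM in ColGFP, DBL and TDonly and was called in no comparison, and the accessory subunit Kcnmb2 had 0.935, 1.31 and 2.02 CPM with no call. Kcnu1, a pore known from sperm, had 0.850, 1.57 and 0.601 CPM in ColGFP and 0.312, 0.240 and 0.0879 in TDonly, a difference of -2.17 ± 0.58 (0.0128) whose call was lost without ColGFP replicate 2 (0.0523).

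**Figure D4:**
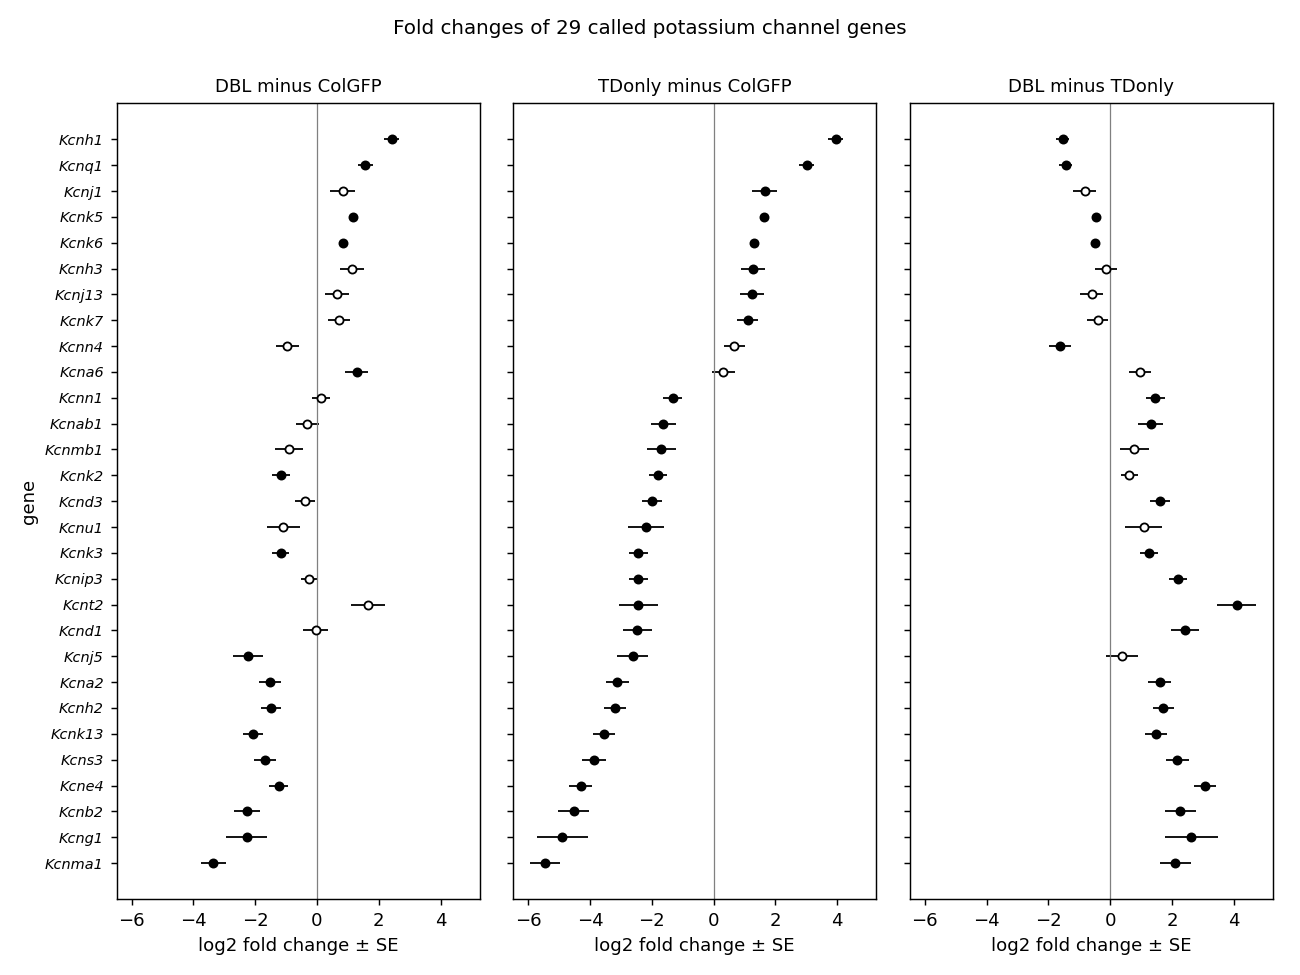
Log2 fold changes ± SE of 29 of the 32 called genes that reached a mean of 1 CPM in a population, for the 3 comparisons on one scale (filled, adjusted p under 0.05; open, not). In TDonly minus ColGFP they run from -5.46 (Kcnma1) to 3.96 (Kcnh1), and in DBL minus ColGFP from -3.35 to 2.42.

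Of the 35 genes called in at least 1 comparison, 3 stayed under 1 CPM in every population: Kcnv2, Kcnk12 and Kcnmb4, named here after their values were seen. Their total counts over the 9 libraries were 110, 95 and 88. Of the tested genes, 27 were called in none. No share over all genes is given for these 27 or for the 35, so neither count is read as particular to channel genes. The 27 untested genes did not exceed 0.848 CPM in any library and had 1 to 85 counts in all, and none was at 0 in every library. They were 9 voltage-gated pores, 6 inward rectifiers, 5 leak channels, 4 auxiliary subunits, 2 silent subunits and 1 calcium-activated pore. They were left out by the filter on low counts. With no filter Kcne3, named here after its values were seen, was called in TDonly minus ColGFP.

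Other genes that move or set potassium, 33 in all with 26 tested, did not share 1 direction. In DBL against ColGFP 6 were higher and 2 lower (8.04% and 6.47% of all genes), in TDonly against ColGFP 7 and 9 (21.6% and 24%), and in DBL against TDonly 10 and 5 (17.3% and 12.6%), with median log2 fold changes of 0.16, 0.21 and 0.27. The potassium-chloride cotransporter Slc12a7 was higher in TDonly, with 28.3, 22.6 and 22.8 CPM in ColGFP, 57.6, 47.2 and 52.7 in DBL, and 131, 111 and 113 in TDonly. Fxyd6, a regulator of the sodium pump, was lower in TDonly than in ColGFP, with a difference of -3.23 ± 0.19 (edgeR adjusted p = 1.25e-06).

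Voltage-gated calcium channel subunits, which depolarisation opens, numbered 18, of which 16 were tested. In DBL against ColGFP 0 were higher and 6 lower (8.04% and 6.47% of all genes), in TDonly against ColGFP 1 and 10 (21.6% and 24%), and in DBL against TDonly 9 and 0 (17.3% and 12.6%), with median log2 fold changes of -0.62, -1.73 and 1.03. Cacna1c, the pore of cardiac and smooth muscle, had 214, 173 and 191 CPM in ColGFP, 93.5, 93.0 and 90.6 in DBL, and 40.4, 49.3 and 47.8 in TDonly, and the populations did not overlap. Cacna2d3, an accessory subunit, fell in the same order, with TDonly minus ColGFP at -5.22 ± 0.28 (edgeR adjusted p = 7.76e-07). Cacna1e, a neuronal type of pore, had 31.3, 20.7 and 25.9 CPM in ColGFP and was at 1.83, 2.97 and 2.83 in DBL and 1.83, 2.2 and 2.46 in TDonly. DBL and TDonly did not differ past the threshold for Cacna1e (0.505), although both lay far below ColGFP.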

How the data were processed

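RNA from 9 libraries was sequenced after removal of ribosomal RNA, per the series' design text. The authors deposited raw read counts per gene symbol; cutadapt, TopHat, HTSeq and the mm10 build are named per the submitters' processing notes, and no source used here gives their versions, the strand setting or the annotation. Columns were matched to samples by their labels, and 3 columns of the table matched no sample and were not used. Counts were analysed with edgeR 4.0.16 (limma 3.58.1, R 4.3.3): genes were kept by filterByExpr with a minimum count of 10, library sizes were scaled by TMM, and a quasi-likelihood model with 1 mean for each population (6 residual degrees of freedom) gave 3 comparisons. P-values were adjusted by Benjamini-Hochberg over all 15550 genes, with a threshold of 0.05. CPM use the TMM-scaled sizes, and RPKM divide by merged GENCODE M21 exons, matched by symbol for all 89 genes. The standard error is the log2 fold change divided by the root of the F statistic. The scripts were tested on simulated data. Genes given in full are those called in at least 1 comparison with a mean of at least 1 CPM in a population (32) and the 10 with the highest level per length over the 9 libraries; of the rest, the 2 most abundant of each family. The members, lists and comparisons were chosen with earlier results of these data known. Replicate numbers were not used as pairs. DESeq2 1.42.0, limma-voom, other scalings and filters, blocks and left-out libraries were tried as alternatives. Some genes that this rule names are not reported here; they remain in all counts, sums and medians.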

Additional observations from a re-analysis of the deposited data

How the results depend on the processing

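Among the 69 calls of genes that reached a mean of 1 CPM in a population, no direction reversed under any alternative. With only the 6 libraries of the higher core numbers, 65 of the 69 were kept. Of the 73 calls of single genes in 1 comparison, 45 were kept under every alternative in which the gene was tested and 28 were lost under at least 1. Counts that moved by over 1.5 times are these. Higher in DBL than in ColGFP (5): 8 with DESeq2 and 16 with only the 6 libraries of the higher core numbers. Lower in DBL than in ColGFP (12): 7 with the replicate number as a block. Higher in TDonly than in ColGFP (11): 17 with DESeq2 and 20 with the 6 libraries. Lower in DBL than in TDonly (5): 8 with the core number series as a covariate, 10 with the 6 libraries and 9 with only the 2 populations in the model. Leaving out 1 library at a time gave 4 to 7 genes higher and 4 to 13 lower in DBL than in ColGFP, 6 to 17 higher and 21 to 23 lower in TDonly than in ColGFP, and 14 to 20 higher and 3 to 9 lower in DBL than in TDonly. The order of DBL and TDonly in summed level did change. With TMM scaling and all 89 genes it was 512 CPM in DBL and 481 in TDonly. Without Kcne4 it was 439 CPM in DBL, 472 in TDonly and 602 in ColGFP. With library totals it was 508 CPM in DBL and 509 in TDonly. Library totals in place of TMM moved the median of all genes to 0.06, 0.16 and -0.13 in the 3 comparisons. Same-numbered libraries had r from 0.0156 to 0.527 over 7 pairs. Only 3 of the 9 libraries correlated best with their own number, so the numbers were not taken to pair them. With that replicate block 13, 32 and 19 genes were called, of which 12, 28 and 17 were shared with the fit without it; over all genes 10.2%, 41.7% and 23.1% were called, against 14.5%, 45.5% and 29.9%. By contrast 8 of the 9 libraries correlated best with their own set of neighbouring core numbers (r from 0.0143 to 0.527 over 9 pairs). DBL and TDonly of the same set had r of 0.527, 0.306 and 0.34, and pairs with ColGFP at most 0.122. DBL and TDonly of different sets among the 6 libraries of the higher core numbers had nearby values, 0.289 and 0.232. The sets are thus not shown to be pairs. The model behind the calls above has no term for the set. With that set as a block 19, 36 and 29 genes were called, against 17, 33 and 23 without it (all genes, 18.4%, 47.6% and 33.4%). Genes with few counts are limited by depth, and a miss at the threshold does not show equal levels.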
